A study of Mus musculus with 6 samples.

Results

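The transcripts of 4 markers of cortical excitatory neurons and 5 markers used for thalamic neurons were followed in dissected mouse dorsal striatum. The 9 genes were fixed by name: Slc17a7, Neurod6, Neurod2 and Tbr1 for cortex, and Slc17a6, Tcf7l2, Prkcd, Ntng1 and Lef1 for thalamus. All 9 were among the 34745 genes of the deposited table. Libraries came from 3 samples of mice heterozygous for Ash1l (Ash1l het) and 3 of wild type (WT) mice, all C57BL/6, aged 1 year and with no treatment named in the labels. Ash1l encodes a histone H3 lysine 36 methyltransferase. The sources used here give neither the kind nor the position of the Ash1l mutation. The labels do not tie replicates to single mice, and the p-values therefore measure only how these 6 samples vary, which may be technical.

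The dorsal striatum has few excitatory neurons of its own. Its output cells are GABAergic spiny projection neurons, and its excitatory input arrives on axons whose cell bodies lie in the cortex and thalamus. Messenger RNA of a cortical or thalamic neuron is mostly kept in its cell body, so transcripts of such neurons are used to follow tissue beyond the striatal border, above it the cortex across the corpus callosum and behind it the thalamus. In bulk tissue, fewer cells of a type and less RNA per cell cannot be told apart. Slc17a7 encodes the vesicular glutamate transporter VGLUT1 of cortical and hippocampal neurons. Neurod6 and Neurod2 are basic helix-loop-helix factors and Tbr1 a T-box factor of cortical projection neurons. Slc17a6 encodes VGLUT2, the transporter of thalamic relay neurons. Tcf7l2 and Lef1 are transcription factors of the Wnt pathway, Prkcd is protein kinase C delta, and Ntng1 encodes netrin-G1, an adhesion protein of thalamocortical axons. The thalamic markers are less restricted than the cortical ones: Tcf7l2 is also made by maturing oligodendrocytes and Lef1 by brain endothelium.

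Depth ran from 12080663 to 18798694 counts per library, and mitochondrially encoded genes took 15.9% to 18.8%. On the first 2 principal components, Ash1l het replicate 1 (-28.1 and 34.8) and Ash1l het replicate 2 (-28.5 and -34.3) stood apart from the other 4 libraries, which lay between 4.18 and 23.8 and between -2.54 and 4.70. The labels' protocol names male mice, whereas Xist stood at 1960 to 2960 CPM (counts scaled by TMM library size) and 4 Y-linked genes summed to at most 1 count in any library. Ash1l itself was at 281, 198 and 253 CPM across Ash1l het, against 308, 295 and 293 CPM in WT, with a log2 fold change of -0.29 with an SE of 0.13 (adjusted p = 0.858 by edgeR). The striatal label was met by the spiny neuron genes: Ppp1r1b, which encodes DARPP-32, and the dopamine receptor genes Drd1 and Drd2 lay between 206 and 1470 CPM in the 6 libraries. The geometric mean FPKM of 20 striatal genes ran from 96.0 to 112.

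The 4 cortical markers lie on 4 chromosomes (GRCm38, coordinates of the deposited table). Slc17a7 is at chromosome 7, 45163921 to 45176138, plus strand; Neurod6 at chromosome 6, 55677822 to 55681263, minus strand. Neurod2 is at chromosome 11, 98325415 to 98329648, minus strand, and Tbr1 at chromosome 2, 61802930 to 61814114, plus strand. These genes kept the same order across libraries (below the sequences), and the cause of that order was not tested. The 250 bases upstream of the RefSeq start of 3 of them (build GRCm38.p6) are shown, 5′ to 3′ on the gene's strand. An E-box of the form bound by NeuroD factors (CAGATG) is in capitals. The windows are chr7:45163671-45163920 (plus), chr6:55681264-55681513 (minus) and chr11:98329646-98329895 (minus).
Slc17a7: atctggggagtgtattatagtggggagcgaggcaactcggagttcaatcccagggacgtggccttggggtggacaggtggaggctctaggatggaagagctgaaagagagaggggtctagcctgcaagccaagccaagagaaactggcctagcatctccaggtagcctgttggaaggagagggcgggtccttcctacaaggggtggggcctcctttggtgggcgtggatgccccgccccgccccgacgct
Neurod6: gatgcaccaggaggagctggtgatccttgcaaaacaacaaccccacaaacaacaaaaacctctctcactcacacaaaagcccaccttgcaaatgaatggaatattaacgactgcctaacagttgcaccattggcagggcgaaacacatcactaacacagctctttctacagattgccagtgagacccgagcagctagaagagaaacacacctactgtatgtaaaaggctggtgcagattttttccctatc
Neurod2: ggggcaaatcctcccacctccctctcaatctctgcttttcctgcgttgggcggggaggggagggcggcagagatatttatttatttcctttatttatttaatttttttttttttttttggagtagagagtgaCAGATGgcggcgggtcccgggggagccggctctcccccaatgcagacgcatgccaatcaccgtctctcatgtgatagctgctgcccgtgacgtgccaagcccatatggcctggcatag
CAGATG or its reverse complement CATCTG was in 1 of the 3 windows, that of Neurod2, and in 14.4% of 32851 promoter windows of the same length. A T-box core, GGTGTGA or TCACACC, was in none of the 3 and in 3.33% of all windows. The window of Tbr1, not shown, lay in annotated exons over all 250 bases and held neither motif. GC content was 61.2% for Slc17a7, 46.0% for Neurod6 and 52.8% for Neurod2. A match is a description of letters and not a shown binding site.

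The cortical markers varied widely between libraries of the same genotype, and their group means hardly differed. Slc17a7 stood at 53.2, 8.60 and 32.8 CPM in Ash1l het replicates 1, 2 and 3, and at 37.8, 20.7 and 30.0 CPM in WT replicates 1, 2 and 3. Ash1l het replicate 1 was the highest of the 6 libraries and Ash1l het replicate 2 the lowest, so the WT range lay inside the Ash1l het range. Neurod6 was at 10.1, 1.76 and 4.67 CPM across Ash1l het, against 6.04, 3.23 and 4.05 CPM in WT. For Neurod2 the values were 4.90, 0.847 and 2.86 CPM across Ash1l het, against 4.22, 1.91 and 2.37 CPM in WT. Both NeuroD genes thus had the same highest and lowest library as the transporter gene. Tbr1 was at 12.5, 1.5 and 5.83 CPM across Ash1l het, against 9.11, 3.83 and 5.33 CPM in WT. These levels rest on 132 to 783 counts for Slc17a7, 27 to 148 for Neurod6, 13 to 72 for Neurod2 and 23 to 184 for Tbr1.

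**Figure D1:**
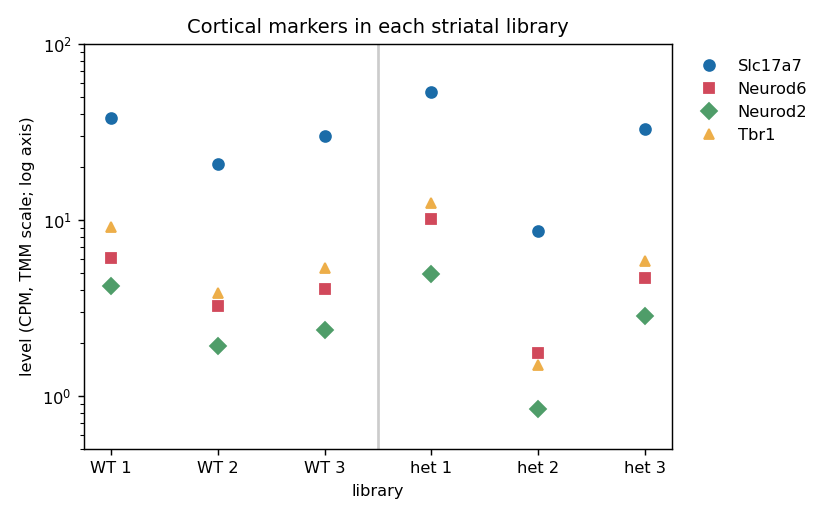
Level of the 4 cortical markers (CPM, TMM-scaled counts, log axis) in the 3 WT and 3 Ash1l het libraries; each point is 1 library and each symbol a gene. In all 4 genes Ash1l het replicate 1 is highest and Ash1l het replicate 2 lowest, and Slc17a7 runs from 8.60 to 53.2 CPM.

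All 4 cortical markers put the 6 libraries in one order: Ash1l het 1, WT 1, Ash1l het 3, WT 3, WT 2, Ash1l het 2, from high to low. That order, which was noticed in these data and then counted, was held by 0.341% of the 15267 tested genes (52 genes, these 4 included). The full order fixes its parts in these 4 markers, so the next shares restate it and add no support. Over the 4 libraries that remain without Ash1l het replicates 1 and 2, the rest of the order was held by 4.04% of tested genes. Within each genotype the same order puts replicate 1 highest and replicate 2 lowest in both groups, which 3.35% of tested genes also had. Whether a replicate number marks a shared day or dissection is not said in the labels. The share of each transcription factor relative to Slc17a7 moved far less than the levels. As a percentage of Slc17a7 FPKM in the same library, Tbr1 ran from 7.46% to 10.3% (1.38-fold), Neurod2 from 7.39% to 10.5% (1.42-fold) and Neurod6 from 18.4% to 28.0% (1.52-fold), while Slc17a7 itself ran over 6.19-fold in CPM.

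The spread of the cortical markers was large beside that of other genes. The highest library exceeded the lowest 6.19-fold for Slc17a7, 5.72-fold for Neurod6, 5.78-fold for Neurod2 and 8.35-fold for Tbr1. A 5-fold spread was reached by all 4 and by 2.99% of tested genes, whose median was 1.5-fold. As Ash1l het replicates 1 and 2 were the highest and lowest libraries of all 4 genes, leaving either out can only narrow the spread. Without Ash1l het replicate 2 it was 2.56-fold to 3.27-fold, and without Ash1l het replicate 1 it was 3.44-fold to 6.08-fold. Without both it was 1.82-fold to 2.38-fold, where tested genes had a median of 1.27-fold and a 95th percentile of 2.86-fold. The 5-fold mark was then passed by 1 of the 4 without Ash1l het replicate 1 (Tbr1; 2.25% of tested genes) and by 0 of the 4 without Ash1l het replicate 2 (2.26%). Within WT alone it was also 1.82-fold to 2.38-fold. The biological coefficient of variation fitted by edgeR was 54.8% for Slc17a7, 48.4% for Neurod6, 47.6% for Neurod2 and 60.3% for Tbr1, against a median of 15.9% over tested genes. Ash1l het replicate 1 exceeded Ash1l het replicate 2 in Slc17a7 6.19-fold, whereas the ratio between those libraries was 1.34 for the pan-neuronal gene Snap25, 0.916 for Drd1, 1.95 for Drd2 and 0.572 for Ppp1r1b. The same highest and lowest library were found in 1 of the 20 striatal and 2 of 14 pan-neuronal genes (6.89% of tested genes). The striatal one, Foxp1, named after its values were seen, was at 471 CPM in Ash1l het replicate 1 and 123 CPM in Ash1l het replicate 2. Ribosomal protein genes, 81 in number, summed to 2990 CPM in Ash1l het replicate 1, the lowest library, to 4430 CPM in Ash1l het replicate 2, the highest, and to between 3210 and 3630 CPM in the others. Gfap, the astrocyte filament gene, named after its values were seen, was also high in both of these libraries, at 412 and 733 CPM, against 104 CPM in Ash1l het replicate 3 and 62.1 to 154 CPM in WT. The part of these differences between libraries in the cortical values was not tested.

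**Figure D2:**
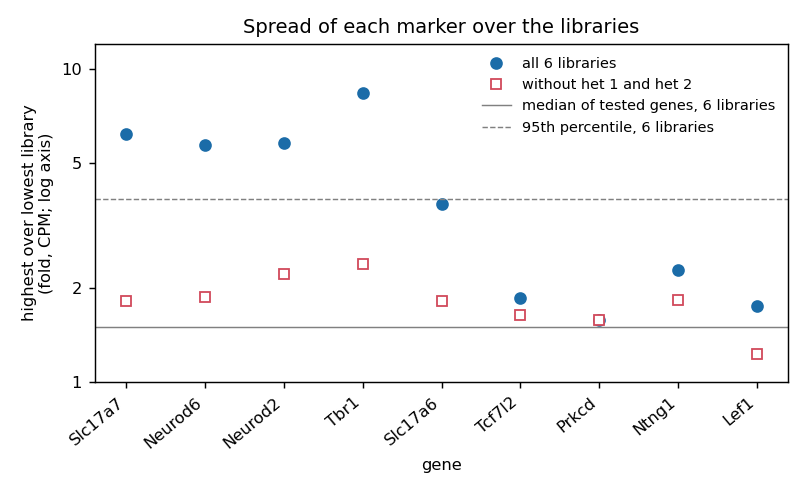
Fold between the highest and the lowest library for each of the 9 markers (CPM, log axis), over all 6 libraries (filled circles) and without Ash1l het replicates 1 and 2 (open squares); lines give the median (1.5) and the 95th percentile (3.84) of tested genes over 6 libraries. The 4 cortical markers reach 5.72-fold or more over 6 libraries and at most 2.38-fold without those libraries. The lines do not apply to the open squares, for which the median is 1.27 and the 95th percentile 2.86 (not drawn).

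Other cortical genes were examined from a list of 21 in the table, of which 19 passed the expression filter. Ash1l het replicate 1 was highest and Ash1l het replicate 2 lowest in 5 of the 19 genes, against 6.89% of tested genes. Among them were Bhlhe22, a helix-loop-helix factor, Slc30a3, the synaptic vesicle zinc transporter ZnT3, Nrn1, which encodes neuritin, and Kcnv1, a potassium channel subunit gene, named here after their values were seen. Slc30a3 was at 2.31, 0.391 and 1.87 CPM across Ash1l het, against 1.82, 1.20 and 1.56 CPM in WT. Kcnv1, in contrast, spanned 1.17-fold. A 5-fold spread was reached by 3 of the 19 genes (2.99% of tested genes). Ash1l het replicate 2 was instead the highest library for Cux2 (13.7 CPM), Rspo1 (13.2 CPM) and Sla (5.02 CPM), also named after their values were seen. Of the 19 genes, 0 passed the edgeR test between genotypes, and the median log2 fold change was 0.01, as over all tested genes. The 2 smallest unadjusted p-values belonged to Mpped1, at -0.59 (SE 0.15, edgeR adjusted p = 0.741), and Ctgf, at 0.84 (SE 0.23, edgeR adjusted p = 0.758). Ctgf, which encodes a secreted matrix protein and marks the deepest cortical layer, is also made by vascular cells, and its 3 Ash1l het libraries lay above the 3 WT libraries (6.18% of tested genes), while those of Mpped1 lay below (5.53%).

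Outside the 9 markers, 11436 genes with a mean of at least 5 CPM were ranked by likeness to Slc17a7. The measure was the root mean square difference over the 6 libraries between log2(CPM + 0.1) levels centred on each gene's mean. The nearest were Lrrc8d, a volume-regulated anion channel subunit gene (0.34), Plekhg1 (0.35) and Slc35e2 (0.37). The other cortical markers lay nearer than these ranked genes, Neurod2 at 0.16, Tbr1 at 0.19 and Neurod6 at 0.22. They were not held to the cut of 5 CPM, and Neurod2 (mean 2.85 CPM) and Neurod6 (4.97 CPM) fall under it. Other genes under the cut were not ranked, so the markers cannot be said to lie nearer than all other genes. Among the thalamic markers the distance to Slc17a7 ran from 0.62 for Tcf7l2 to 0.97 for Ntng1.

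Set against the mean of the striatal genes, the 4 cortical markers were lower in every library and variable. As a percentage of the geometric mean FPKM of the 20 striatal genes, Slc17a7 was at 19.0%, 3.23% and 9.61% in Ash1l het, against 11.8%, 6.48% and 9.50% in WT. The other 3 cortical markers stayed between 0.241% (Tbr1 in Ash1l het replicate 2) and 4.92% (Neurod6 in Ash1l het replicate 1). On the log2(FPKM + 0.1) scale, the mean of the 4 markers minus that of the striatal genes was -4.54, -6.92 and -5.70 in Ash1l het and -5.20, -6.16 and -5.77 in WT. The group means were -5.72 ± 1.19 and -5.71 ± 0.48 (SD of 3 libraries), a difference of -0.015 (Ash1l het minus WT), far under either SD. The reference itself leaned lower in Ash1l het: 15 of the 20 striatal genes were lower by sign (48.6% of tested genes), with a median log2 fold change of -0.16, and 0 passed the edgeR test. Of the 20, 4 had an unadjusted edgeR p under 0.05 (5.78% of tested genes). Every Ash1l het library lay below every WT library in 4 of them (5.53%) and above in 1 (6.18%). For 14 pan-neuronal genes the median was -0.11, with 9 lower by sign and 0 called. The cortical difference of -0.015 depended on both outer Ash1l het libraries: it was -0.605 without Ash1l het replicate 1 and 0.584 without Ash1l het replicate 2.

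**Figure D3:**
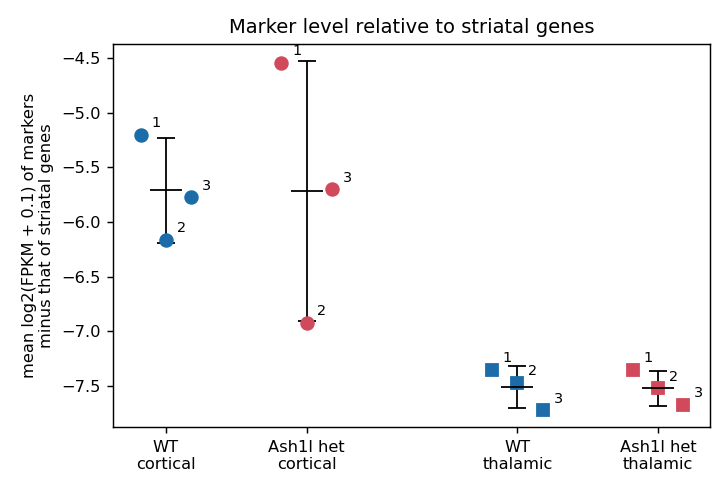
Mean log2(FPKM + 0.1) of the 4 cortical or 5 thalamic markers minus that of 20 striatal genes in the same library; each point is 1 library, numbered by replicate, and bars show the group mean and SD. Cortical values of Ash1l het run from -6.92 to -4.54 and thalamic values of all libraries from -7.72 to -7.35.

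Between genotypes, none of the markers passed. Of the 9, 8 passed the expression filter, Slc17a6 being too low, and 0 of these 8 had an adjusted p under 0.05 by the quasi-likelihood test of edgeR, where 0.0131% of tested genes were called. At an unadjusted p under 0.05 the counts were also 0 of 8 members, and 882 of 15267 genes. DESeq2, which called 0.161% of its genes, and limma-voom each called 0 members. Slc17a7 averaged 31.5 ± 22.3 CPM for Ash1l het, against 29.5 ± 8.52 CPM for WT (SD of 3 libraries), a log2 fold change of 0.10 with an SE of 0.66 (adjusted p = 0.987 by edgeR). The log2 fold changes were 0.32 (SE 0.58) for Neurod6, 0.03 (SE 0.57) for Neurod2 and 0.13 (SE 0.73) for Tbr1, with edgeR adjusted p-values of 0.951, 0.994 and 0.985. With errors of this size the comparison does not show equal levels. With Ash1l het replicate 1 left out all 4 log2 fold changes were negative, from -0.70 (Tbr1) to -0.44 (Neurod6), and with Ash1l het replicate 2 left out all 4 were positive, from 0.47 (Neurod2) to 0.73 (Neurod6).

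Per length (FPKM), the thalamic markers were lower than Slc17a7 in every library, and none of the 5 had the full cortical order of libraries. In part they shared it: Slc17a6 was also highest in Ash1l het replicate 1, and Tcf7l2 also lowest in Ash1l het replicate 2, with ratios between those libraries of 2.61 and 1.76. Slc17a6 (chromosome 7, 51621830 to 51671125, plus strand) had 15, 6 and 5 counts in the Ash1l het libraries, against 6, 7 and 8 for WT. In CPM this was 1.02, 0.391 and 0.275 in Ash1l het and 0.497, 0.418 and 0.463 in WT. The exact 95% Poisson interval of the highest library, Ash1l het replicate 1, was 0.571 to 1.68 CPM and overlapped that of each other library, with counting error alone considered. With no filter its log2 fold change was 0.26 with an SE of 0.62 (adjusted p = 0.958 by edgeR). Per length, Slc17a6 averaged 0.119 FPKM over the 6 libraries, against 10.3 FPKM for Slc17a7.

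Tcf7l2 (chromosome 19, 55741810 to 55933654, plus strand) was at 7.21, 4.10 and 5.33 CPM across Ash1l het, against 7.62, 5.68 and 4.63 CPM in WT. The groups overlapped, and the log2 fold change was -0.10 with an SE of 0.26 (adjusted p = 0.973 by edgeR). The 5 genes listed for newly formed oligodendrocytes summed to 390 to 589 CPM across Ash1l het, against 359 to 437 CPM in WT, and 0 of the 5 passed. Most of that sum was Bcas1 (320 to 512 CPM in Ash1l het). Gpr17, at -0.41 (SE 0.12, edgeR adjusted p = 0.789), and Bmp4, at -0.60 (SE 0.33, edgeR adjusted p = 0.878), lay lower in each Ash1l het than in each WT library. That held for 2 of the 5 genes and for 5.53% of tested genes, and these 3 were named after their values were seen. The part of such cells in the Tcf7l2 level was not tested. The genes most like Tcf7l2 across libraries were Pcdhb9 (root mean square difference 0.09), Patz1 (0.11) and Kcnh5 (0.12). Prkcd (chromosome 14, 30595356 to 30626210, minus strand) was at 8.84, 10.6 and 9.29 CPM across Ash1l het, against 11.0, 7.77 and 6.95 CPM in WT, a log2 fold change of 0.16 with an SE of 0.20 (adjusted p = 0.928 by edgeR). WT libraries spanned the whole Ash1l het range of this kinase gene.

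Ntng1 (chromosome 3, 109780040 to 110144011, minus strand) varied more than the other tested thalamic markers, at 8.36, 11.0 and 16.5 CPM across Ash1l het, against 18.3, 19.1 and 10.4 CPM in WT. Its lowest library was Ash1l het replicate 1, the library in which the cortical markers were highest. The log2 fold change was -0.40 with an SE of 0.30 (adjusted p = 0.897 by edgeR).

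**Figure D4:**
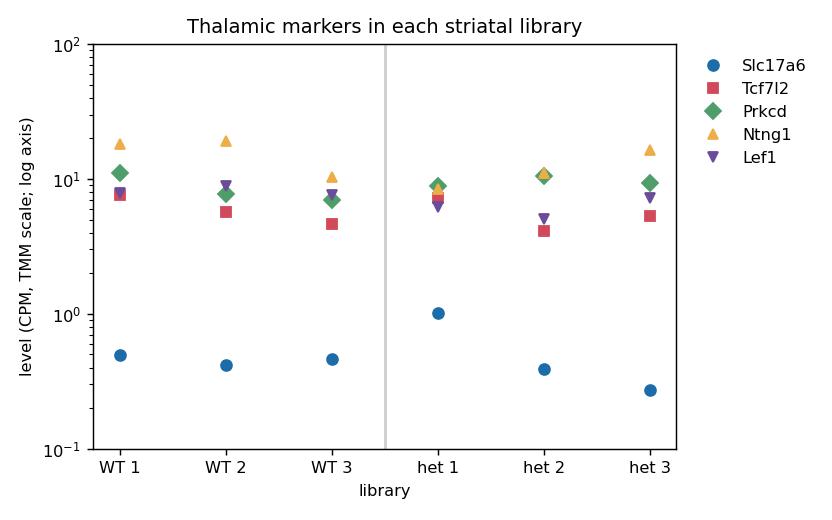
Level of the 5 thalamic markers (CPM, TMM-scaled counts, log axis) in the 3 WT and 3 Ash1l het libraries; each point is 1 library. Slc17a6 stays at or under 1.02 CPM, and Lef1 is lower in each Ash1l het library (at most 7.26 CPM) than in each WT library (at least 7.58 CPM).

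Lef1 was the single marker whose groups did not overlap. Lef1 (chromosome 3, 131110471 to 131224356, plus strand) was at 6.19, 5.08 and 7.26 CPM across Ash1l het, against 7.87, 8.91 and 7.58 CPM in WT. The means were 6.18 ± 1.09 and 8.12 ± 0.697 CPM (SD of 3 libraries), and the log2 fold change was -0.39 (SE 0.19). It did not pass, with an edgeR unadjusted p of 0.0659 and an adjusted p of 0.859. Groups that did not overlap were found in 1 of the 8 tested markers and in 11.7% of tested genes (5.53% in the direction of Lef1), so the share among the markers is near the background. Relative to the striatal genes, Lef1 was lower in Ash1l het by 0.25 on the log2(FPKM + 0.1) scale, with p = 0.1 by an exact permutation test (two-sided), which cannot go lower with 3 libraries a group. The other 8 markers overlapped on that scale, with exact permutation p-values from 0.3 to 1. The 8 endothelial genes, a cell type that also makes Lef1, summed to 367 to 439 CPM over Ash1l het libraries and to 319 to 367 CPM in WT. Of them 7 were higher in Ash1l het by sign, against 7840 of 15267 tested genes, whereas Lef1 was lower. An unadjusted edgeR p under 0.05 was found in 4 of the 8 (5.78% of tested genes), and 0 passed after adjustment. In 3 of the 8 the groups did not overlap, with Ash1l het higher (6.18% of tested genes). The part of endothelial cells in the Lef1 level was not tested. The 5 blood genes summed to 56.1 to 123 CPM over Ash1l het libraries and to 23.0 to 35.4 CPM over WT, each of the 5 being higher in every Ash1l het than in every WT library (6.18% of tested genes were). Their log2 fold changes ran from 1.55 to 2.32, all with an unadjusted edgeR p under 0.05, and 0 passed after adjustment; the part of blood in the marker levels was likewise not tested.

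**Figure D5:**
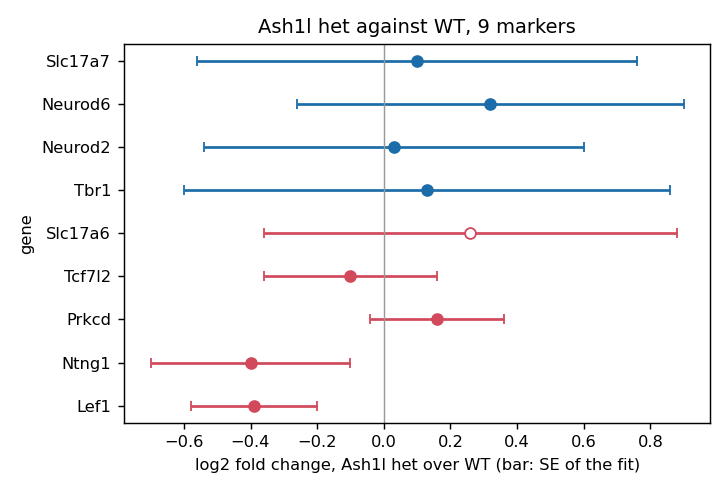
log2 fold change of Ash1l het over WT for the 9 markers (points) with the SE derived from the edgeR fit (bars). Blue marks cortical and red thalamic genes, and the open point, Slc17a6, is from the fit with no expression filter. Values run from -0.40 for Ntng1 to 0.32 for Neurod6, and 0 of the 8 tested markers passed.

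Relative to the striatal genes the thalamic markers went in different directions, from 0.27 for Prkcd and 0.19 for Slc17a6 to -0.26 for Ntng1 and -0.25 for Lef1 (difference in log2(FPKM + 0.1), Ash1l het minus WT). Averaged over the 5, which evens out such opposite differences, the mean log2(FPKM + 0.1) minus that of the striatal genes was -7.35, -7.52 and -7.67 in Ash1l het and -7.35, -7.47 and -7.72 in WT, a range of 0.37 against 2.38 for the cortical markers. The group means were -7.52 ± 0.16 and -7.51 ± 0.19 (SD of 3 libraries). Summed FPKM of the 5 thalamic markers was 0.0704% to 0.108% of the summed FPKM of the striatal genes, and that of the 4 cortical markers 0.145% to 0.925%.

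By level per length, the 9 markers were ordered as follows when averaged over the 6 libraries. Slc17a7 was highest, at 10.3 FPKM, and above all other markers in every library. Neurod6 followed at 2.30 FPKM, with a range over libraries (0.871 to 4.72) that overlapped those of the next 5 genes. Prkcd (0.933), Tbr1 (0.921), Neurod2 (0.903), Ntng1 (0.834) and Lef1 (0.769) lay within each other's spread over libraries. Tcf7l2, at 0.262 FPKM, and Slc17a6, at 0.119 FPKM, were lowest, and in every library below the lowest value of Neurod6.

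Further thalamic genes gave no call. Of 19 listed in the table, 16 passed the filter and 0 the edgeR test; 11 were lower by sign, and the median log2 fold change was -0.07, against 48.6% lower and a median of 0.01 over tested genes. Zfhx3, a homeobox factor, was at -0.32 (SE 0.15, edgeR adjusted p = 0.858), and Rgs16, a regulator of G protein signalling, at 0.62 (SE 0.33, edgeR adjusted p = 0.878). Ash1l het replicate 1 was highest and Ash1l het replicate 2 lowest in 2 of the 16, Plekhg1 and Calb2, named after their values were seen.

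In the Wnt pathway, in which Tcf7l2 and Lef1 bind DNA with beta-catenin, 16 of 17 other genes passed the filter and 0 the edgeR test. Of the 16, 13 were lower in Ash1l het by sign (48.6% of tested genes were), with a median log2 fold change of -0.10. Nkd1, a feedback inhibitor, was at -0.38 (SE 0.13, edgeR adjusted p = 0.841) and lower in each Ash1l het than in each WT library. That held for 1 of the 16 genes and for 5.53% of tested genes. Axin2, a common target gene, was at -0.27 (SE 0.15, edgeR adjusted p = 0.885). Among relatives of the 9 markers, 12 of 16 were tested and 0 passed. Slc17a8, which encodes VGLUT3, the transporter of striatal cholinergic interneurons, was at 0.29 (SE 0.11, edgeR adjusted p = 0.857). Slc17a8 averaged 4.59 FPKM, so that VGLUT3 transcripts lay between those of VGLUT1 (10.3 FPKM) and VGLUT2 (0.119 FPKM).

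Markers of other neighbouring regions had 0 genes called. The 11 habenular and hypothalamic genes together summed to 5.17 to 6.71 CPM over Ash1l het libraries and to 5.27 to 6.34 CPM in WT. Of these, Chrnb4, a nicotinic receptor subunit gene, was at -0.86 (SE 0.41, edgeR adjusted p = 0.859) and Trh at 0.06 (SE 0.31, edgeR adjusted p = 0.985). The hippocampal list had 2 genes tested, Prox1 at -0.02 (SE 0.15, edgeR adjusted p = 0.986) and Dsp, a desmosome gene, at 0.32 (SE 1.28, edgeR adjusted p = 0.982). Dsp was at 4.56, 17.1 and 2.31 CPM across Ash1l het, against 16.6, 2.21 and 1.04 CPM in WT. Its high libraries were thus Ash1l het replicate 2, the lowest for the cortical markers, and WT replicate 1, next to their highest. Lhx8 and Lhx6, LIM homeobox genes of pallidal and interneuron lineages, were at 0.40 (SE 0.21) and -0.18 (SE 0.14), with edgeR adjusted p-values of 0.878 and 0.897. Of glial and choroid plexus lists, astrocytes (5 genes tested, median log2 fold change 0.06, with Gfap at 2.06 and SE 0.81), microglia (5, -0.04), myelin (8, 0.13) and choroid plexus (3, -0.35) each had 0 genes called.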

How the data were processed

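The authors deposited 1 table with raw read counts and FPKM per gene for 6 dorsal striatum libraries; its counts equal those in the file of each sample. Per the submitters' processing notes GRCm38 was the build, and CASAVA, FastQC, HISAT2, StringTie and edgeR were used; the sources used here give no versions, no settings and not whether the counting used strand, though the kit was stranded per the labels' protocols. Per the file headers the FPKM values are the authors' own, and each gene had 1 length over the 6 libraries within 1%.

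The main test on counts was edgeR quasi-likelihood (version 4.0.16 in R 4.3.3; robust, TMM scaling, default filter with a minimum count of 10, genotype as the single term), with Benjamini-Hochberg adjustment over 15267 genes and a threshold of 0.05. Each SE was derived from this test, as the absolute log2 fold change divided by the square root of its F statistic. Alternatives used DESeq2 1.42.0 and limma 3.58.1. Levels relative to striatum are log2(FPKM + 0.1) minus the mean over 20 striatal genes in the same library, compared by two-sided exact permutation tests. The steps were tested on simulated counts. Members and gene lists (18 lists) were chosen with earlier results of these data known. Named genes are the 9 members, the 2 smallest p-values of each context list and the 3 genes most like Slc17a7 and Tcf7l2; others are marked, and some genes that the rule or a count would name are not reported here. Intervals cover counting error only. In GENCODE M21, exons of Lef1 alone among the members overlap another gene's, the antisense Gm43352, which had at most 2 counts.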

Additional observations from a re-analysis of the deposited data

How the results depend on the processing

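The count of members called was 0 under all 16 alternatives, though not every one tested all 8: Tcf7l2 was below the FPKM filter. With the mean cortical level as a covariate, chosen after seeing the data, values were kept for the 4 thalamic members only (2 genes called in all). The cortical members themselves make up that covariate. Over all genes 2 calls became 35 with DESeq2; leaving out libraries singly gave between 1 call (WT replicate 3 omitted) and 13 calls (Ash1l het replicate 3 omitted). With the replicate number as a block 3 genes passed, and log2 fold changes were -0.17 for Slc17a7, -0.13 for Neurod2 and -0.14 for Tbr1. Deviations of same-numbered libraries correlated across genes at 0.0556, -0.0753 and 0.0107, and not every library correlated best with its own number; this does not settle the pairing for the cortical genes, where the block took the SE of Tbr1 from 0.73 to 0.34. By limma-voom the values were -0.19, -0.17 and -0.20, on log2(FPKM + 0.1) -0.17, -0.14 and -0.14, and on log2(FPKM + 1) -0.12 for Slc17a7 and -0.02 for Neurod2; the cause was not tested. With single libraries left out, the log2 fold change ran from -0.50 to 0.54 for Slc17a7, -0.44 to 0.73 for Neurod6, -0.57 to 0.47 for Neurod2, -0.70 to 0.60 for Tbr1 and -0.33 to 0.10 for Tcf7l2. For Lef1 it kept its sign, from -0.53 to -0.27, and for Ntng1 from -0.71 to -0.20. Relative to striatal genes 1 marker, Lef1, had groups apart; with a pseudocount of 1 FPKM, above its own level, there were 0, and with single libraries left out 1 to 2. Slc17a6 gave no value with the filter. Depth limits Slc17a6 most, at 5 to 15 counts per library.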
